A study of Oscheius tipulae with 48 samples.

Results

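Dauer larvae were compared with L1 larvae of Oscheius tipulae, a free-living nematode, in RNA-seq of whole worms. The comparison takes 2 dauer libraries and 3 L1 libraries out of 48 libraries in the series. Values are RPKM, read numbers divided by the length of the gene and the size of the library, for 14558 genes. Both groups are whole worms of the strain CEW1, with no mutation or drug named in the labels. The dauer larvae were harvested from liquid culture. The L1 larvae came from mixed embryos that were left to develop in salt medium without food, and the labels do not say whether they were collected before or after plating on bacteria. Culture and feeding therefore cannot be told apart from stage in this comparison. The 5 libraries were chosen by their labels. The results are for the 6222 genes, of 14446 tested, whose dauer mean and L1 mean averaged 10 RPKM or more. This floor was set because genes that are silent elsewhere read higher in dauer libraries. It weights both groups equally, and a gene at 20 RPKM in only 1 group passes it.

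Nematodes can stop development at several points. Larvae that hatch without food arrest as L1 and resume when fed. Larvae that grow up crowded or short of food can instead form a dauer, a thin, non-feeding, stress-resistant larva that lives on stored fat and resumes growth as a post-dauer larva when food returns. In Caenorhabditis elegans both arrests are controlled by insulin signalling, and dauers make a cuticle of their own and shift metabolism towards fat and glyoxylate use. The gene IDs of this table come without names, so lists of dauer, stress, cuticle, metabolic, yolk, ribosomal and cell cycle genes could not be matched. For the same reason the stage labels could not be checked against marker genes. At most 2 IDs in each direction are given.

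The 5 libraries were not alike. Silent genes, the 3124 genes with a median under 0.5 RPKM over all libraries, had a median of 3.59 and 1.55 RPKM in dauer replicates 1 and 2, against 0.15, 0.47 and 0.23 RPKM in L1 replicates 1, 2 and 3. Of the 20 other worm libraries, 3 had such a median of 1 RPKM or more. L1 replicate 1 stood apart from the other L1 libraries. Over 14558 genes on the log2(RPKM + 1) scale, it correlated at 0.756 and 0.770 with L1 replicates 2 and 3, at 0.880 with the mixed embryos, and at 0.879 with the latest staged embryos. L1 replicates 2 and 3 correlated at 0.921 and the 2 dauer libraries at 0.922. These correlations are across genes, which are not independent replicates. The calls are given with and without L1 replicate 1. The summed RPKM was 402630 and 371389 in dauer, against 499041, 482474 and 619848 in L1. Only 24 and 5 values of the dauer libraries lay between 0 and 0.1 RPKM, where the step left by 1 read could be seen, so their read depth was not recovered. The titles call the replicates biological and say nothing of separate cultures. The p-values rest on the spread within groups over all 25 libraries of the fit, of which these are 5. That spread may be technical.

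More genes shared the bulk of the RNA in dauer than in L1. In dauer libraries 1 and 2, 399 and 292 genes made up 50% of the summed RPKM, against 174, 257 and 115 genes in L1 replicates 1, 2 and 3. The groups did not overlap in this measure. The 10 most abundant genes held 6.49 and 7.73% of the sum in dauer, against 15.7, 8.13 and 9.28% in L1, again without overlap. The number of genes at 10 RPKM or more did overlap, at 6414 and 5298 in dauer, against 5252, 5918 and 6065 in L1. The dauer libraries also had the raised silent level given above, and its part in these measures was not tested. In 3 other worm libraries with a silent median of 1 RPKM or more, fewer genes made up 50% than in dauer. These were replicate 1 of post-dauer young adults, post-dauer L3 and post-dauer L4. Their silent medians were 5.32, 2.44 and 1.365 RPKM, and 102, 186 and 117 genes made up 50%. Some worm libraries of low silent level passed dauer replicate 2. In replicate 2 of males and of post-dauer young adults, 311 and 297 genes made up 50%, at silent medians of 0.51 and 0.44 RPKM. No other worm library reached the 399 genes of dauer replicate 1. In young adults the 10 most abundant genes held 5.76 and 6.38%, less than in either dauer library. With 2 libraries against 3, an exact permutation test cannot reach 0.05, so no p is given. The most abundant genes were largely the same: 88 of the 100 genes with the highest dauer mean were also among the 100 with the highest L1 mean. That number was 86 without L1 replicate 1. For scale, the 2 dauer libraries shared 89 of their top 100 genes and L1 replicates 2 and 3 shared 81.

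The genes called between dauer and L1 were mostly genes at a low L1 level and a higher dauer level. Of the 6222 genes, 58 differed, 0.932%, and by direction 49 were higher in dauer, 0.788% of those tested at this floor, and 9 were lower, 0.145%. Calls needed a log2 change of 1 or more in either direction and, in limma, a p under 0.05 after Benjamini-Hochberg adjustment over all 14446 genes. At an unadjusted p under 0.05 there were 302 higher and 409 lower. The median log2 change was 3.97 over the 49 genes, with a range of 1.83 to 7.09, and 38 of them changed by 3 or more. Over the 9 genes the median was -2.19, with a range of -3.61 to -1.81. Over all 6222 genes it was -0.22, with a 5th percentile of -1.35 and a 95th percentile of 1.37. With no floor, 93 genes were higher and 9 lower, 0.644% and 0.0623% of those tested. In whole worms, more RNA per cell and more cells that use a gene cannot be told apart.

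The balance between the directions depended on the libraries. Without L1 replicate 1, 67 genes were higher in dauer and 79 lower, 1.08% and 1.28% of 6191 genes at the floor. Of the 49 higher genes 42 remained called, and all 9 lower genes did, while 25 higher and 70 lower genes were called in addition. After quantile normalization, under which the median log2 change of the 6222 genes was 0.00, a shift of 0.22, 93 were higher and 39 lower. After each library had its silent level taken off, 40 were higher and 20 lower. Leaving out replicate 1 of the young adult, the post-dauer young adult, the post-dauer L4 and the post-dauer L3 groups, which stood apart from their groups, a choice made after seeing the data, gave 192 higher and 192 lower, and these included all 58 genes. Those 4 libraries enter only through the shared estimate of spread. By the values alone, 412 genes had both dauer libraries above all L1 libraries and 1018 had both below, 6.62% and 16.4% of the 6222 genes. With so few libraries, such separation is common without any difference between groups, so these counts are descriptions. The count of 58 was 119 and 37 without L1 replicates 2 and 3, and 8 and 37 without dauer replicates 1 and 2.

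**Figure D1:**
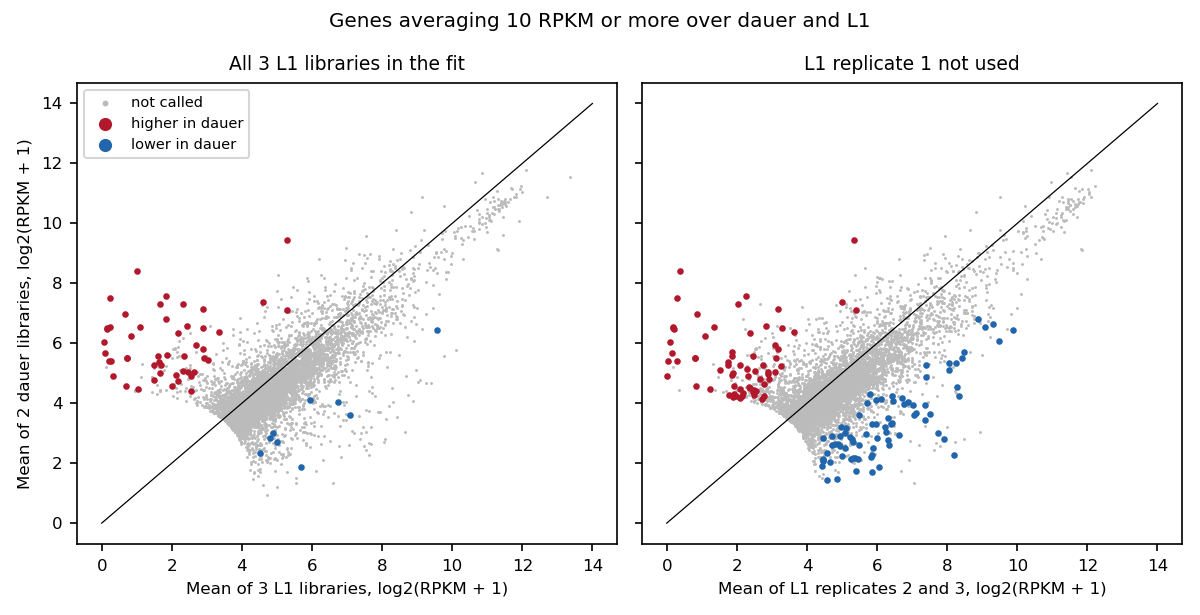
Mean level in dauer (vertical) against mean level in L1 (horizontal), both as log2(RPKM + 1), for genes averaging 10 RPKM or more, 6222 with all 3 L1 libraries (left) and 6191 without L1 replicate 1 (right). Each point is a gene, the line marks equal levels, and coloured genes passed the limma threshold: 49 higher and 9 lower at left, 67 higher and 79 lower at right.

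The gene with the largest difference was Oti_g10670. It was at 579 and 99.8 RPKM in dauer replicates 1 and 2, against 2.47, 0.56 and 0.04 RPKM in L1 replicates 1, 2 and 3. Both dauer libraries were far above every L1 library. The log2 change was 7.09 ± 0.92 (SE), with a limma Benjamini-Hochberg adjusted p of 0.000747, and 7.57 ± 0.99 (SE; adjusted p = 0.00251) without L1 replicate 1. The call was lost without dauer replicate 1 (limma Benjamini-Hochberg adjusted p = 0.0615). Outside dauer this gene stayed low throughout the life cycle. Its highest group mean elsewhere was 8.62 RPKM in post-dauer young adults, from 16.6 RPKM in replicate 1 and 0.62 RPKM in replicate 2; silent genes had a median of 5.32 RPKM in that replicate 1.

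Oti_g07005 was at 322 and 41.0 RPKM in dauer replicates 1 and 2, against 0.11, 0.19 and 0.26 RPKM in L1 replicates 1, 2 and 3. The dauer libraries differed from each other, and both stood far above L1. Its log2 change was 6.62 ± 0.79 (SE), with a limma Benjamini-Hochberg adjusted p of 0.000528, and 6.57 ± 0.89 (SE; adjusted p = 0.00296) without L1 replicate 1. This gene kept its call without each of the 5 libraries in turn. In staged embryos it reached at most 0.06 RPKM, in L2, L3 and L4 at most 0.89 RPKM, and in adults and males at most 0.43 RPKM. Post-dauer L3 had 5.08 and 0 RPKM, the larger value in a library with a silent median of 2.44 RPKM.

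Among the 9 genes called lower in dauer with L1 replicate 1 in the fit, Oti_g11428 had the largest log2 change. It was at 3.00 and 2.33 RPKM in dauer, against 21.3, 44.1 and 86.2 RPKM in L1 replicates 1, 2 and 3. The dauer libraries were close to each other and lay below every L1 library, at a level near that of silent genes in dauer. The log2 change was -3.61 ± 0.76 (SE), with a limma Benjamini-Hochberg adjusted p of 0.0303, and -4.10 ± 0.79 (SE; adjusted p = 0.0168) without L1 replicate 1. Oti_g11428 was a gene of early larvae: embryos had at most 1.09 RPKM, L2 had 38.3 and 46.8 RPKM, L3 had 30.3 and 2.17 RPKM, and L4 had 1.30 and 1.71 RPKM. No post-dauer library exceeded 3.32 RPKM.

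Oti_g11012 was at 11.5 and 10.9 RPKM in dauer, against 145, 129 and 133 RPKM in L1 replicates 1, 2 and 3. Here L1 replicate 1 was level with the other L1 libraries. The log2 change was -3.48 ± 0.76 (SE), with a limma Benjamini-Hochberg adjusted p of 0.0372, and -3.44 ± 0.84 (SE; adjusted p = 0.0440) without L1 replicate 1. In contrast to Oti_g11428 it stayed on in later stages, at 75.4 to 96.6 RPKM over the L2, L3 and L4 libraries and at 19.0 and 47.0 RPKM in post-dauer L3. Staged embryos had at most 9.24 RPKM. Both lower genes lost their calls without L1 replicate 2 or 3 or either dauer library, with adjusted p values between 0.0502 and 0.400 in limma with Benjamini-Hochberg adjustment. With a pseudocount of 0.1 the limma Benjamini-Hochberg adjusted p was 0.198 for Oti_g11428 and 0.0590 for Oti_g11012, at log2 changes of -3.98 and -3.59. With only genes at the floor in the fit it was 0.0504 for Oti_g11428, at a log2 change of -3.61.

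The 2 most abundant genes that were not called and changed by less than 1 on the log2 scale, Oti_g06538 and Oti_g00701, showed how far L1 libraries can differ. Oti_g06538 was at 1495 and 4442 RPKM in dauer, against 25579, 5177 and 762 RPKM in L1 replicates 1, 2 and 3. Oti_g00701 was at 959 and 2842 RPKM in dauer, against 16388, 3314 and 486 RPKM in L1. In both genes the groups overlapped, and the log2 changes were -0.85 ± 1.78 and -0.85 ± 1.79 (SE; limma Benjamini-Hochberg adjusted p = 0.819 and 0.822), or 0.38 and 0.38 without L1 replicate 1. The 2 genes kept a nearly fixed ratio, 1.56 in both dauer libraries and 1.56 to 1.57 in the L1 libraries, with a median of 1.56 and a highest value of 1.70 over all 48 libraries. Whether they share reads of a near-identical sequence was not tested, and their levels are uncertain for that reason. Together they held 0.610 and 1.96% of the summed RPKM in dauer, against 8.41, 1.76 and 0.201% in L1 replicates 1, 2 and 3.

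**Figure D2:**
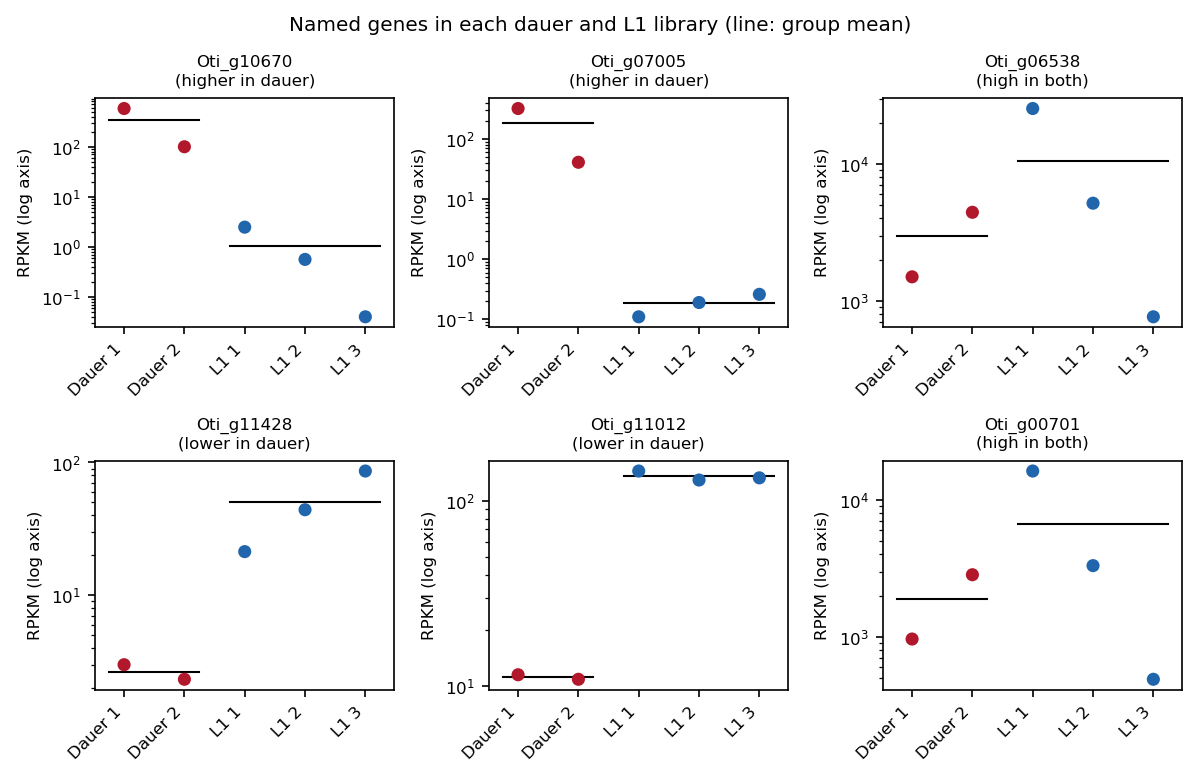
RPKM (log axis) of the 6 named genes in each library, with dauer replicates 1 and 2 in red and L1 replicates 1, 2 and 3 in blue; the line is the group mean. Dauer libraries lie above all L1 libraries in the 2 genes at top left and below them in the 2 genes at bottom left, whereas the groups overlap in the 2 genes at right.

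The 49 genes higher in dauer varied within both groups. Their median was 61.0 and 32.6 RPKM in dauer replicates 1 and 2, against 0.76, 3.25 and 1.95 RPKM in L1 replicates 1, 2 and 3. Dauer replicate 1, the library with the higher silent level, had the larger value in 36 of the 49 genes and dauer replicate 2 in 13. Over the 6222 genes at the floor, dauer replicate 1 also had the higher median, 20.96 against 18.72 RPKM. The dauer libraries were within 2-fold of each other in 25 genes and more than 4-fold apart in 11. Both dauer libraries were at 10 RPKM or more in 47 genes, a level that the floor and the direction of the call favour. In 10 genes every L1 library was under 1 RPKM. Single values ran from 6.31 to 1011 RPKM in dauer and reached at most 43.2 RPKM in L1.

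The 79 genes called lower in dauer without L1 replicate 1 were mostly lower in that library than in the other L1 libraries. Their median was 6.61 and 8.04 RPKM in dauer, against 57.4 and 70.5 RPKM in L1 replicates 2 and 3. The genes were chosen for high values in those 2 libraries, which favours lower values in a library left out. Of the 79 genes, 70 were not called with L1 replicate 1 in the fit. The median in L1 replicate 1 was 8.87 RPKM. That library lay under both other L1 libraries in 76 of the 79 genes, and at or below the higher dauer library in 46. Among the 6222 genes it lay under both other L1 libraries in 2923 and above both in 2135. Of these 79 genes, 10 were at or under the silent median in dauer replicate 1 and 1 in dauer replicate 2; a gene above that median can still lie within the range of silent genes. Their log2 changes ran from -5.46 to -1.48, with a median of -2.76, and 35 changed by -3 or beyond.

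**Figure D3:**
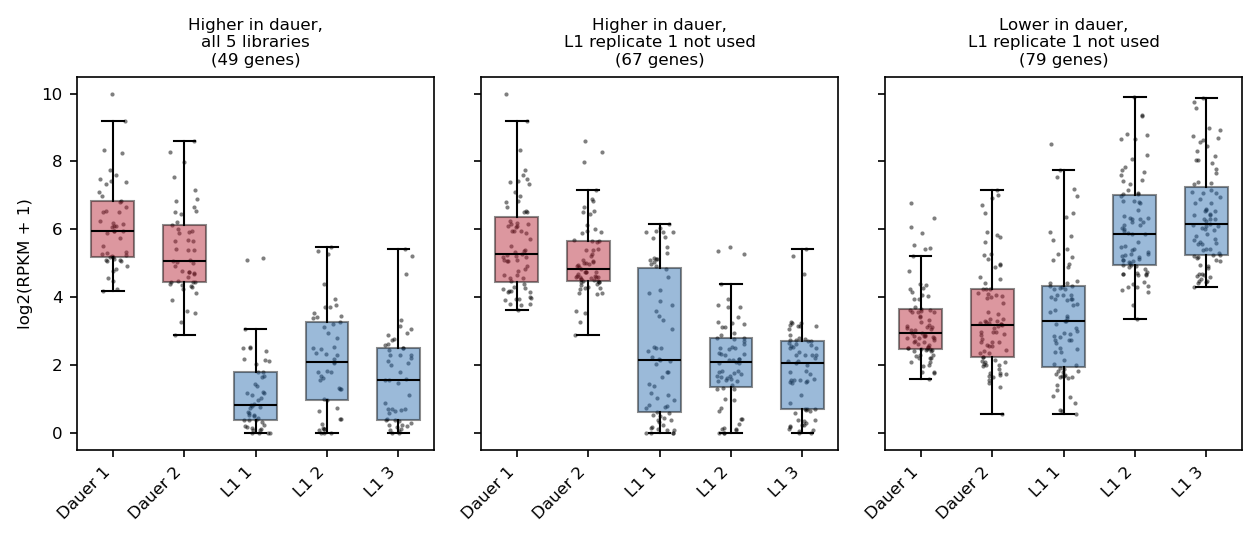
Level of each called gene, as log2(RPKM + 1), in the 2 dauer libraries (red) and 3 L1 libraries (blue); the panels hold 49 genes higher in dauer (left), 67 higher (middle) and 79 lower (right) without L1 replicate 1, points are genes, boxes span the quartiles with the median, and whiskers reach the farthest gene within 1.5 box lengths. L1 replicate 1 has the lowest median of the L1 libraries at left, 0.76 RPKM, and is close to dauer, with a median of 8.87 RPKM, at right.

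Followed through the rest of the life cycle, the genes of each direction had a different range of use. The larval, adult and post-dauer libraries also entered the estimate of spread behind the calls, and the staged embryos did not. The 49 genes higher in dauer were low in embryos, with library medians of 0.34 RPKM or less in every staged embryo library. Their medians were also low in L2 to L4, at 1.79 to 3.17 RPKM. Not all of these genes were low there: 19 reached 10 RPKM in each L4 library, and 14 and 12 in the L3 libraries. The 67 genes called without L1 replicate 1 were higher in these stages. Their medians were 10.1 and 9.24 RPKM in L4, and 18 to 25 of them reached 10 RPKM in each staged embryo library. In post-dauer L3 the medians were 3.84 and 1.73 RPKM for the 49 genes and 6.75 and 9.30 RPKM for the 67. In post-dauer mature adults they were 7.21 and 13.3 RPKM for the 49. The 79 genes lower in dauer were also low in embryos, at 0.99 RPKM or less, and high in fed larvae, at 62.8 and 67.9 RPKM in L2, 74.6 and 41.2 RPKM in L3 and 59.4 and 54.0 RPKM in L4. Post-dauer L3 had 26.5 and 34.4 RPKM of them, above both dauer libraries.

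**Figure D4:**
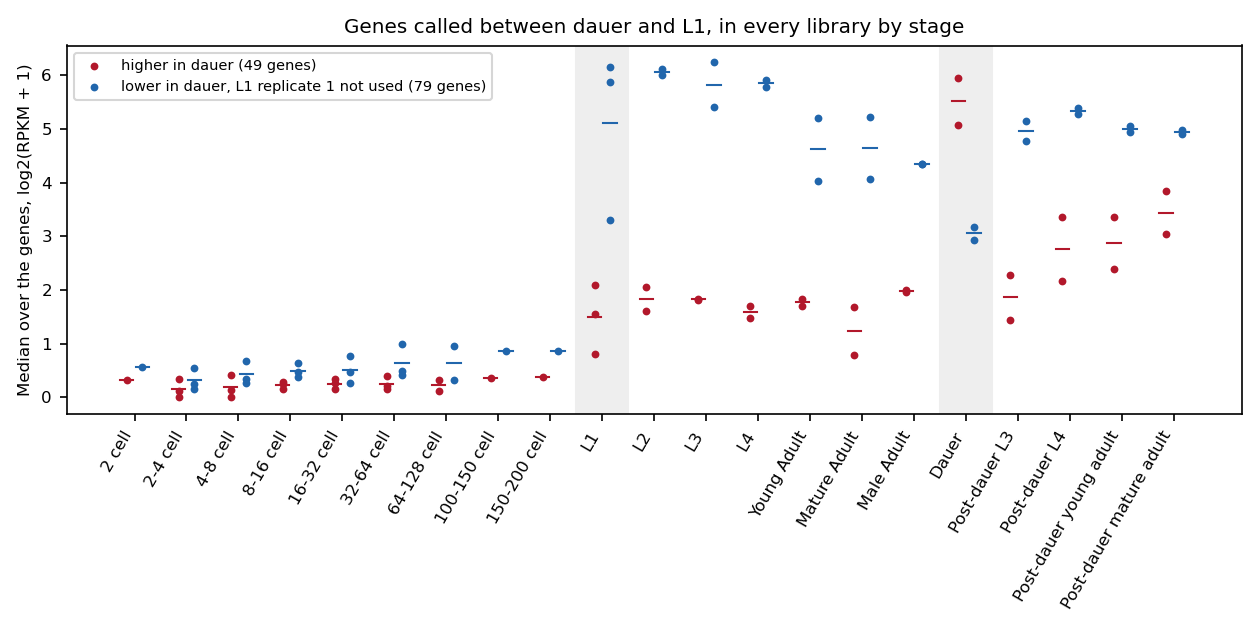
Median over the 49 genes higher in dauer (red) and over the 79 genes lower in dauer when L1 replicate 1 is not used (blue), as log2(RPKM + 1), in every library of a single stage; points are libraries, dashes are group means, and grey bands mark the 2 groups compared. The red genes had medians of 61.0 and 32.6 RPKM in dauer and of 13.3 RPKM or less elsewhere, and the blue genes were high in L1 to L4 and low in embryos; the lowest blue point of L1 is L1 replicate 1, at 8.87 RPKM.

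Some of the 49 genes stayed low in every other group. In 17 of them, 34.7%, the mean reached 10 RPKM in none of the 19 other stage groups, compared with 0.884% of the 6222 genes. That count was 18 when the 4 other libraries that stood apart were left out, and the 18 genes had medians of 82.3 and 21.0 RPKM in dauer replicates 1 and 2, against 0.47, 0.44 and 0.285 RPKM in L1 replicates 1, 2 and 3. Another 9 genes reached 10 RPKM elsewhere only in post-dauer groups, 18.4% compared with 1.35% of all, or 8 without those libraries. The other 23 reached it in at least 1 embryo, larval, adult or male group of direct growth. All 79 lower genes reached 10 RPKM in some group of direct growth, and 72 of them, 91.1%, also in a post-dauer group. Of the 6222 genes, 95.1% did so in both kinds of group and 2.64% in direct growth alone, so these shares lie near the background. A gene high in dauer alone could pass the floor through dauer alone, so these shares are descriptions.

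The group of highest mean outside dauer and L1 differed likewise. Post-dauer groups held the highest mean of 30 of the 49 genes, 61.2% compared with 17.6% of the 6222, and post-dauer mature adults alone held 15. Leaving out the 4 libraries that stood apart, post-dauer groups held 28. L2, L3 or L4 held the highest mean of 63 of the 79 lower genes, 79.7% compared with 21.0%. Embryos held it for 2 of the 49 and 0 of the 79 genes, whereas they held it for 52.3% of the 6222. Without L1 replicate 1 in the comparison, post-dauer groups held it for 29 of the 67 higher genes, 43.3%. Embryos held it for 19 of the 67, 28.4%, which is below their share of all genes. At 2 cells it was 15 of the 67, 22.4% compared with 24.4% of the 6222, so that share lies near the background. For the 17 of the 49 genes under 10 RPKM in every other group, the highest mean is one of several low values. L1 replicate 1 was at or above the lower dauer library in 17 of those 67 genes.

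**Figure D5:**
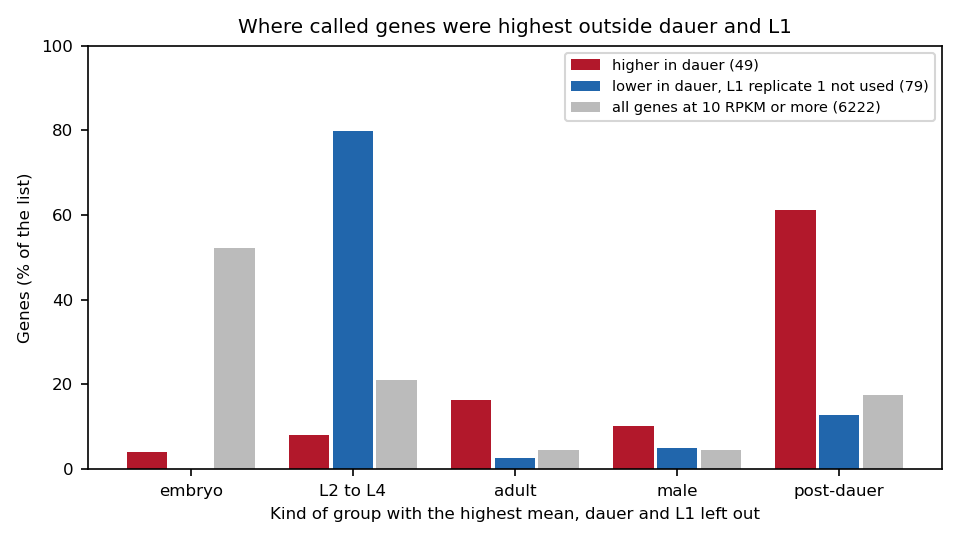
Share of genes (%) whose highest group mean outside dauer and L1 was in embryos, L2 to L4, young and mature adults, males or post-dauer groups, for the 49 genes higher in dauer, the 79 lower in dauer when L1 replicate 1 is not used, and all 6222 genes. Post-dauer groups held 61.2% of the red genes, and L2 to L4 held 79.7% of the blue ones. Of the 67 genes higher in dauer without L1 replicate 1, not drawn here, post-dauer groups held 43.3%.

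Comparisons that share no library with dauer or L1 were read for the same genes. Apart from the embryos, they use libraries whose spread also entered the calls. A gene of small spread is called more readily in each of them. In post-dauer L3 against L3, limma called 0 of the 49 and 0 of the 79 genes, as of all 6222 genes (0%), with 2 of the 49, 11 of the 79 and 111 of the 6222 at an unadjusted p under 0.05. The median log2 change was 0.15 for the 49 genes, -0.93 for the 79 genes and -0.17 for all. A positive change was seen in 29 of the 49 and in 2 of the 79, compared with 35.3% of all. Without the 4 libraries that stood apart, the medians were -0.12, -0.83 and -0.07, so the median of the 49 genes changed sign. For the 67 genes called without L1 replicate 1 the median was 0.63, with 47 positive, or 0.28 without those 4 libraries.

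Between males and mature adults, some of the genes higher in dauer were called. The calls between worm groups share the estimate of spread that helped choose these genes, so their shares are descriptions. Of the 49 genes, 7 were higher and 6 lower in him-1(sy527) males than in mature adults, 14.3% and 12.2%, compared with 3.76% and 0.434% of the 6222, or 7 and 7 compared with 5.06% and 1.01% without the 4 libraries; sex and genotype are not separated there. Of the 79 lower genes 2 were higher and 1 lower. Between young adults and L4, 6 of the 49 genes were higher in young adults, and 0 lower, compared with 0.129% and 0.37% of all, and the first number was 1 without the 4 libraries that stood apart, of which young adult replicate 1 is one. Between 32-64 and 2-4 cell embryos only 15 of the 49 genes were high enough to be tested, and 5 of them were higher at 32-64 cells, 33.3%, and 0 were lower, compared with 21.7% and 5.52% of the 5557 genes tested there. The median log2 change was 0.72 for those 15 and 0.23 for all. The value of 0.72 depended on the processing. It was 0.07 with no filter on low values, 0.27 after quantile normalization, 0.99 with a pseudocount of 0.1 and -0.37 with array weights. Each is over the tested genes that were called higher in dauer under that setting. With the 67 genes called without L1 replicate 1, 35 were tested, 3 were higher and 12 lower at 32-64 cells, and the median was -0.91.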

How the data were processed

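The authors deposited 1 table of RPKM values with 48 library columns; its header names no unit, and the unit was inferred from fractional values whose library sums differ. HTSeq 2.0.2, StringTie 2.2.0, STAR 2.7.10 and Bowtie2 2.4.2 are named, without their roles, in the submitters' processing notes. Which genome build and gene models were used is not given in the sources used here. Reads of overlapping or near-identical genes cannot be told apart. Libraries were prepared from total RNA after ribosomal RNA removal, per the labels' protocols.

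Values were tested as log2(RPKM + 1) in R 4.3.3, using limma 3.58.1 (trended, robust moderation), in 1 fit of 25 libraries of 12 larval, dauer and adult groups. Embryo comparisons used a fit of 17 libraries of 6 stages. A gene was tested if 2 or more libraries reached 1 RPKM. Such fold changes understate changes of low genes. Named genes were called with and without L1 replicate 1, had groups that do not overlap, and were the 2 of largest change in each direction, beside the 2 most abundant uncalled genes. Identical values above 1 RPKM made up at most 0.128% in any pair of the 5 libraries. The L2 to L4 columns are numbered differently from their labels, so they were tied to groups only. Functions were tested on simulated data. The genes, lists and rules were chosen with earlier results of these data known. Alternatives were another normalization, pseudocount, filter, floor, spread estimate, library weights, leaving out libraries and a replicate block.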

Additional observations from a re-analysis of the deposited data

How the results depend on the processing

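The count of 58 genes was 132 after quantile normalization, 32 with a pseudocount of 0.1, 100 with only dauer and L1 libraries in the fit, 809 with limma's array weights (331 higher and 478 lower, an estimate that stopped before convergence) and 102 with no floor. Leaving out 1 library gave 8 to 146 genes. Chosen after seeing the data, leaving out 4 other libraries that stood apart gave 384 genes, these and L1 replicate 1 gave 996, and only dauer and L1 libraries without L1 replicate 1 gave 859. The count stayed within 1.5 times with no trend, no filter, only genes at the floor in the fit, silent medians subtracted, a floor on the higher group and a floor of 20 RPKM. Without L1 replicate 1, 146 genes became 291 after quantile normalization, 145 higher and 146 lower, and with silent medians subtracted 166, of which 39 were higher and 127 lower.

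With the replicate number as a block, in the libraries that carry one, 24 genes were called, all higher, against 30 without the block in the same libraries. L1 replicate 3 was the only library of that fit with its number, so the block took it out of the contrast. Oti_g10670 and Oti_g11428 had log2 changes of 6.70 and -3.12 with the block and likewise without L1 replicate 3. The 2 counts therefore do not show the effect of the block alone. Deviations of same-numbered dauer and L1 libraries from their group means correlated at -0.319 and -0.318 over 6222 genes. The deviations of 2 dauer libraries mirror each other, so these are not separate checks and cannot decide whether the numbers mark pairs. The numbers were not taken as pairs. Oti_g06538 and Oti_g00701, never called, had log2 changes of 0.11 and 0.22 after quantile normalization, 0.91 and 0.92 with array weights, and 0.38 and 0.38 in each fit without L1 replicate 1, the reverse of the direction given above; leaving out 1 library gave -2.16 to 0.38 for each. The cause of these shifts was not tested beyond the libraries and values named. Read depth of the dauer libraries was not recovered, and 2 and 3 libraries per group limit the precision.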
